A study of Homo sapiens with 12 samples.

Results

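The genes of cholesterol and fatty acid synthesis were followed in 2 human acute myeloid leukemia cell lines, MOLM-13 and THP-1, treated with Jiyuan oridonin A (JOA) or with the solvent DMSO. The members were 33 genes taken by symbol from the 20030 rows of the expression table: 18 enzymes of the sterol branch, 9 genes of the fatty acid branch and 6 genes that regulate the pathway or handle sterol. All 33 symbols were found, each in its own row. JOA is an ent-kaurene diterpenoid from an Isodon plant, and the study asked how it releases the block in differentiation of leukemia cells with rearranged MLL. MOLM-13 carries rearranged MLL and the internal tandem duplication of FLT3, and was given 0.5 µM JOA. THP-1 carries rearranged MLL with wild-type FLT3, and was given 2 µM JOA. Cells were collected after 48 h according to the labels, and each of the 4 groups had 3 libraries of mRNA. Dose and cell line changed together, so an effect of the line cannot be told apart from an effect of the dose. Each line is an established culture grown from the cells of 1 patient, and although the study describes its experiments as repeated and independent, no source used here ties the 3 libraries of a group to separate cultures, so the p-values measure only the spread between these libraries, which may be technical.

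Cells build cholesterol from acetyl-CoA through mevalonate, isoprenoid units, squalene and lanosterol, and they build fatty acids from the same acetyl-CoA through malonyl-CoA. Both branches are switched on by the SREBP transcription factors, which are made as membrane proteins of the endoplasmic reticulum (ER). When sterols are scarce the escort protein SCAP carries SREBP to the Golgi, where proteases release the active factor. When sterols are plentiful INSIG proteins hold SCAP and SREBP in the ER. SREBP-2, made from SREBF2, mainly drives the sterol genes, and SREBP-1, made from SREBF1, mainly drives the fatty acid genes, whose transcription is also raised by the oxysterol receptors LXR. Proliferating cells, leukemia cells among them, draw on both branches for new membrane.

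The values were FPKM, that is, fragments counted per gene, divided by transcript length and by what the library had mapped in all, as deposited by the authors. The table holds no read totals, so the depth was unknown; the steps between low values showed that the MOLM-13 libraries differed in depth by a factor between 0.858 and 1, and the THP-1 libraries by a factor between 0.923 and 1.06, each relative to control library 1 of its line. Log2 values of libraries of 1 line correlated across genes with r between 0.987 and 0.995. The 10 marker genes of monocytic leukemia were all above 0, summing to between 2256 and 3732 FPKM in MOLM-13 and between 1073 and 1668 FPKM in THP-1, most of it lysozyme (LYZ). Markers of T cells summed to at most 3.79 FPKM, markers of B cells to at most 1.57 FPKM, markers of erythroid cells to at most 0.601 FPKM, markers of fibroblasts to at most 1.06 FPKM and markers of hepatocytes to at most 0.0401 FPKM. Epithelial markers summed to at most 8.21 FPKM, nearly all of it KRT18 in MOLM-13. In bulk RNA, fewer expressing cells and less RNA per cell cannot be told apart. Some libraries stood apart in these genes. In MOLM-13 the control library numbered 1 was the lowest of the 6 libraries for 7 of the 9 fatty acid members and for 5 of the 6 regulation members, against 19.6% of all genes tested. In THP-1 all 18 sterol members were highest in the libraries numbered 1 and lowest in those numbered 3, averaged over control and JOA.

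**Figure D1:**
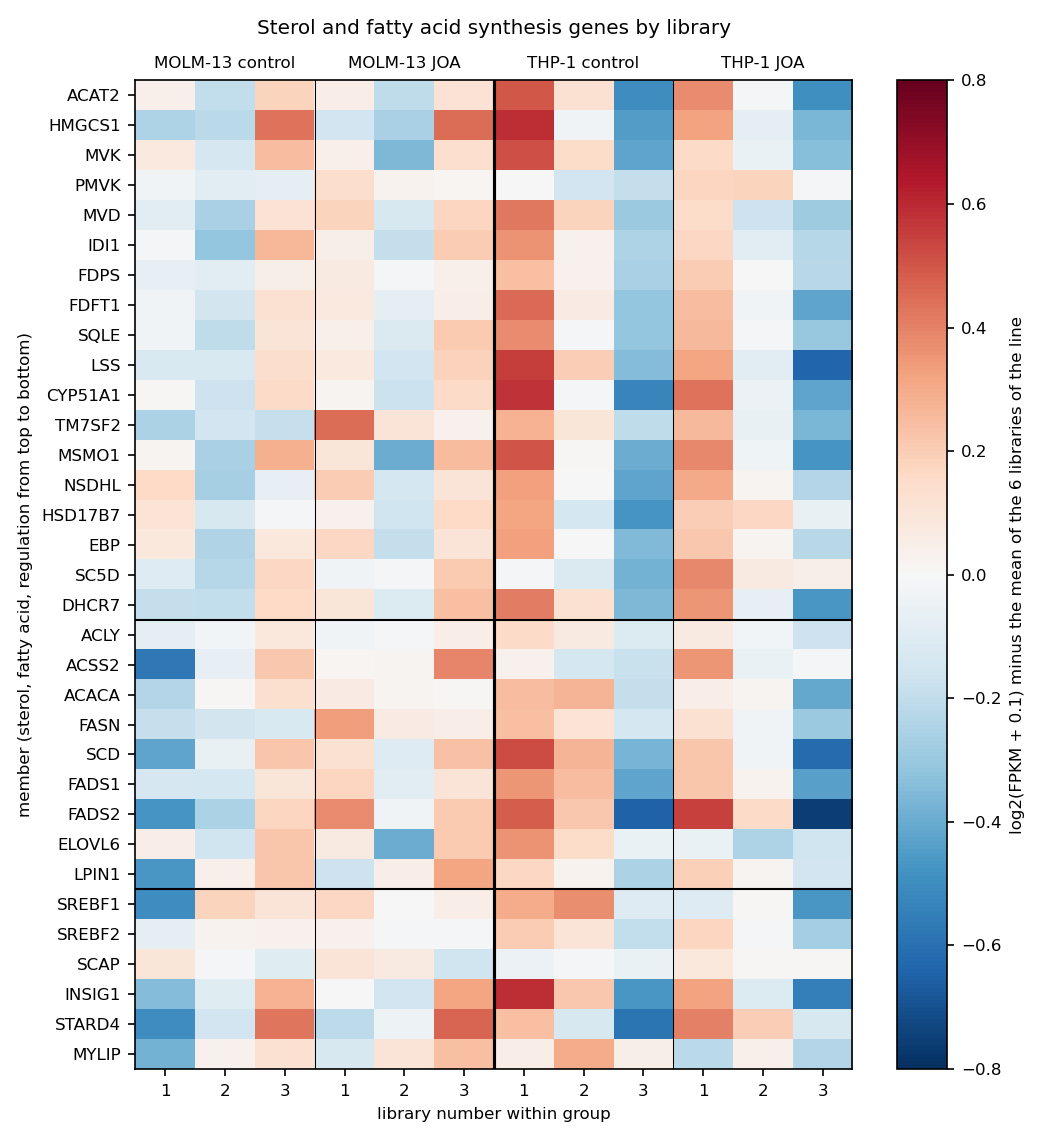
Heat map of the 33 members (rows) in the 12 libraries (columns, numbered within each group), as log2(FPKM + 0.1) minus the mean of the 6 libraries of that cell line. The libraries numbered 1 of THP-1 are red and those numbered 3 blue for most sterol members in both control and JOA, and the MOLM-13 control library numbered 1 is blue for most fatty acid and regulation members.

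The promoters were searched for letters that SREBP and its partners are known to read. RefSeq promoters (build GRCh38.p14, 250 bases before and 50 after each start) matched 29 of the 33 members, on both strands. The members without a matched entry were FDFT1, FASN, SQLE and ACAT2. The core of the sterol regulatory element, TCACCCCAC, was present in 1 member, SREBF2, and in 0.535% of the 27305 genes with a promoter. The looser TCACNCCAC, which includes the first, was again present in SREBF2 alone, against 1.39% of genes. The CCAAT box, read by NF-Y, was present in 22 of 29 members (75.9%) against 39.7% of genes, and the GC box GGGCGG, read by Sp1, in 28 of 29 (96.6%) against 48.3% of genes. The E-box CACGTG was present in 4 members, LSS, SC5D, SCAP and INSIG1, against 8.77% of genes. CCAAT occurred in 13 of 15 sterol promoters and in 5 of 8 fatty acid promoters. The 27305 genes were not limited to expressed or protein-coding genes, so these shares cannot show a trait particular to the members. A match is a description of the letters, not of binding. A missing match does not show that a member lacks a site read by SREBP, since only these letters in this window were searched. Stretches upstream of 7 members are shown as examples, and no result below rests on their letters. They are the 2 SREBP genes, the inhibitor INSIG1, and SCD, LSS, MYLIP and STARD4, which differed between lines or between THP-1 pairs. DHCR7 also differed between lines. The 150 bases taken upstream of it held none of the letters searched and are not shown, although its promoter entries held CCAAT and GGGCGG. Each reads 5′ to 3′ on the strand of its gene, and capitals mark TCACCCCAC, CCAAT and GGGCGG on either strand. The stretches lie at chr22:41832929-41833078 (plus, SREBF2), chr17:17837003-17837152 (minus, SREBF1), chr7:155297628-155297775 (plus, INSIG1), chr10:100346983-100347123 (plus, SCD), chr21:46228825-46228974 (minus, LSS), chr6:16128936-16129085 (plus, MYLIP) and chr5:111512591-111512740 (minus, STARD4), each upstream of the annotated gene.
SREBF2: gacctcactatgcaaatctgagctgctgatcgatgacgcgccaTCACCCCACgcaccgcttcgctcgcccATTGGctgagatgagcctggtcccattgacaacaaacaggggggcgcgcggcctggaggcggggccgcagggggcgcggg
SREBF1: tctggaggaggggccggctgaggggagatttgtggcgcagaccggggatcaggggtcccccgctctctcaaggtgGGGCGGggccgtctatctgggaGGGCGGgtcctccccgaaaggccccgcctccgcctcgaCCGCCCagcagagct
INSIG1: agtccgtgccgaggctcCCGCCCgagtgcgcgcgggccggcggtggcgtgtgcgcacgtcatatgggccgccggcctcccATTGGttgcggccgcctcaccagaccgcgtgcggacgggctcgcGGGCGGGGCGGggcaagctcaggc
SCD: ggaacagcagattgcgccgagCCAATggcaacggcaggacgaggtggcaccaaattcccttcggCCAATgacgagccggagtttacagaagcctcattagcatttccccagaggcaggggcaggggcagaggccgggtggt
LSS: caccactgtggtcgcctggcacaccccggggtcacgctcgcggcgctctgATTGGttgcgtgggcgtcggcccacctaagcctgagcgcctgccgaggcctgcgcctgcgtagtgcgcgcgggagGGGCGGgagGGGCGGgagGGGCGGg
MYLIP: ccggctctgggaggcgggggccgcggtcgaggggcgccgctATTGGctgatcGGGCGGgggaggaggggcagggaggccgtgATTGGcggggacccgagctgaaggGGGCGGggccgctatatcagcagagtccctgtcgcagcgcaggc
STARD4: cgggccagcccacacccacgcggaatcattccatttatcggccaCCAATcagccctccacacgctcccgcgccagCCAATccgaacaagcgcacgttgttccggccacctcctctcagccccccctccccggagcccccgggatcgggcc

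In the SREBF2 stretch the sterol element and a CCAAT box in reverse, ATTGG, lie close together, whereas the SREBF1 stretch holds 3 GC boxes and no CCAAT box. LSS holds 3 GC boxes behind a reversed CCAAT box, and MYLIP holds 2 of each. SCD and STARD4 hold 2 CCAAT boxes each in the stretch shown.

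Many members differed between the untreated lines, mostly toward lower values in THP-1, and many other genes differed too. Of the 33 members, 16 were lower and 2 were higher in untreated THP-1 than in untreated MOLM-13 (limma, Benjamini-Hochberg adjusted p under 0.05 and a change of at least 0.58 on the log2 scale), where 19.0% of the 12635 genes tested were lower and 25.0% were higher. All fold changes are differences of log2(FPKM + 0.1), which understate the change of genes near 0. In either direction 54.5% of the members were called, against 44% of genes. At the adjusted p alone 66.7% of the members passed, against 71.2% of genes. The 16 lower members held 9 of the 18 sterol enzymes, 4 of the 9 fatty acid genes and 3 of the 6 regulation genes. The 2 higher members were both fatty acid genes, FASN and FADS1. Rescaling the libraries to a common sum (TPM) moved the median of all genes from 0.06 to 0.17, and the sterol branch kept a median of -0.55 against -0.63 as deposited.

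Of the 7 early sterol enzymes, up to FDPS, MVK alone was called. ACAT2, which joins acetyl-CoA units, averaged 62.8 ± 8.12 FPKM (SD, n = 3) in untreated MOLM-13 and 55.8 ± 18.4 FPKM in untreated THP-1. HMGCS1, HMG-CoA synthase, averaged 27.9 ± 7.90 and 19.4 ± 7.18 FPKM. MVK, mevalonate kinase, averaged 6.41 ± 0.857 and 3.14 ± 1.01 FPKM and was called lower in THP-1 by limma with Benjamini-Hochberg adjustment (log2 fold change -1.05, adjusted p 0.00281). The next kinase PMVK, the decarboxylase MVD and the isomerase IDI1 were not called, at 14.6 against 13.8, 13.2 against 10.0 and 20.2 against 17.9 FPKM. FDPS, which makes farnesyl diphosphate, was the sole sterol enzyme with a higher mean in THP-1, 62.3 ± 10.6 against 48.8 ± 2.41 FPKM, and its change of 0.34 was under the fold threshold. The 7 enzymes up to FDPS had a median change of -0.22.

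From squalene onwards all 11 enzymes had lower means in THP-1, with a median change of -0.82. FDFT1, squalene synthase and the first enzyme committed to sterols, measured 121, 111 and 134 FPKM in the MOLM-13 control libraries and 50.7, 38.7 and 29.8 FPKM in those of THP-1. The groups lay far apart, and the change was -1.65 (SE 0.17, limma adjusted p 5.14e-05). SQLE, squalene epoxidase, averaged 74.9 ± 7.92 and 30.2 ± 7.35 FPKM (-1.33). EBP, which moves a double bond in the sterol ring, averaged 63.9 ± 8.01 and 22.8 ± 5.34 FPKM (-1.50). DHCR7, which completes cholesterol by reducing 7-dehydrocholesterol, gave the largest change of the branch. Its gene lies at chr11:71428193-71452868 on the minus strand. It measured 31.4, 31.3 and 40.0 FPKM in MOLM-13 and 8.41, 6.89 and 4.90 FPKM in THP-1, a change of -2.35 (SE 0.19, limma adjusted p 9.90e-06). NSDHL (-1.08), LSS (-0.82), HSD17B7 (-0.71) and MSMO1 (-0.71), which close and trim the lanosterol ring, were also called lower. TM7SF2 passed the adjusted p but not the fold threshold (-0.37), and CYP51A1 (-0.56) and SC5D (-0.18) passed neither.

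The fatty acid branch was split between the lines. FASN, fatty acid synthase, measured 52.8, 54.3 and 55.0 FPKM in MOLM-13 and 96.6, 88.2 and 74.1 FPKM in THP-1, with no overlap (0.67, SE 0.09, limma adjusted p 0.000291). FADS1, the delta-5 desaturase, measured 16.7, 16.6 and 19.6 against 35.7, 33.1 and 20.8 FPKM (0.72, SE 0.19, limma adjusted p 0.00803). Without the THP-1 control library numbered 1 both fell just under the fold threshold, at 0.58 each, and the count of members called higher went from 2 to 0. ACLY, which makes acetyl-CoA from citrate, was higher below the fold threshold (57.6 ± 3.34 against 74.2 ± 6.70 FPKM, 0.36). ACACA, acetyl-CoA carboxylase, and FADS2, the delta-6 desaturase, averaged 12.6 and 41.6 FPKM in MOLM-13 against 13.8 and 41.5 FPKM in THP-1 and were not called. SCD, the stearoyl-CoA desaturase, had the highest mean of all members in both lines, 212 ± 46.6 FPKM in MOLM-13 and 107 ± 31.6 FPKM in THP-1, and was called lower in THP-1 (-1.01). ACSS2, which activates acetate (-0.95), and LPIN1, a phosphatidate phosphatase (-1.02), were called lower too. ELOVL6 elongates palmitate and was close to absent from THP-1: 6.34, 5.47 and 7.13 FPKM in MOLM-13 faced 0.0896, 0.0635 and 0.0420 FPKM in THP-1. With JOA it stood at 0.0424, 0.0245 and 0.0322 FPKM in THP-1. Its change of -5.28 (limma adjusted p 7.54e-08) depends on the added constant, from -2.77 with 1 added to -6.44 with 0.01 added.

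Among the regulation genes SREBF2 had close means in both lines, 33.9 ± 1.42 and 34.3 ± 4.78 FPKM (0.01), while SREBF1 was lower in THP-1, 26.1 ± 6.19 against 13.4 ± 2.24 FPKM (-0.94, limma adjusted p 0.00226). SCAP was higher below the fold threshold (13.9 ± 0.944 against 18.8 ± 0.294 FPKM, 0.43). INSIG1 measured 93.3, 111 and 144 FPKM in MOLM-13 and 48.7, 37.6 and 23.4 FPKM in THP-1, a change of -1.70 (SE 0.26, limma adjusted p 0.000443). MYLIP, the ubiquitin ligase that marks lipoprotein receptors for degradation and an LXR target, measured 19.5, 26.0 and 27.7 against 6.20, 7.35 and 6.18 FPKM (-1.86, SE 0.14, limma adjusted p 6.18e-06). STARD4, a carrier that moves cholesterol between membranes, averaged 6.53 ± 2.20 and 4.81 ± 1.37 FPKM and was not called.

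**Figure D2:**
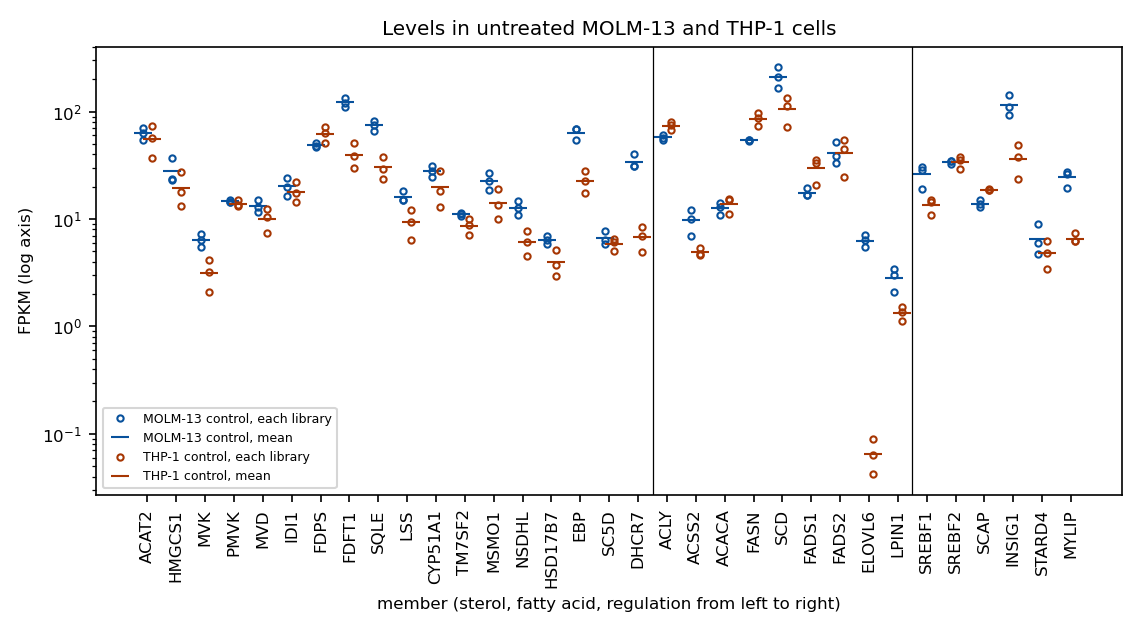
FPKM (log axis) of each member in the 3 untreated libraries of MOLM-13 and of THP-1, with horizontal marks at the means. From FDFT1 to DHCR7 every mean is lower in THP-1, FASN and FADS1 lie higher, and ELOVL6 lies near 6 FPKM in MOLM-13 and below 0.1 FPKM in THP-1.

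Summed over the branch, the sterol members reached 593 ± 64.9 FPKM (SD, n = 3) in untreated MOLM-13 and 350 ± 88.7 FPKM in untreated THP-1, while the fatty acid members reached 415 ± 67.2 and 359 ± 75.4 FPKM. The ratio of sterol to fatty acid sums lay between 1.29 and 1.69 in the 6 MOLM-13 libraries and between 0.916 and 1.07 in the 6 THP-1 libraries, with no overlap. SCD and FDFT1 had the highest means in MOLM-13, followed closely by INSIG1, and SCD, FASN and ACLY in THP-1. Neighbours in these orders often did not differ beyond their spread, FDFT1 and INSIG1 in MOLM-13 among them.

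JOA changed no member past the threshold in MOLM-13, and most of the small differences were positive. By limma with Benjamini-Hochberg adjustment 0 of 33 members were called, as were 0% of the 11693 genes tested. The study itself reported changed genes in both lines by DESeq, LPIN3 in MOLM-13 among them. That method needs counts and could not be run on FPKM, so the 0% belongs to the limma fit used here. At an unadjusted p under 0.05 limma gave 2 members, TM7SF2 and FASN, and 4.11% of genes. Libraries with the same number resembled each other across control and JOA within each line, so a fit with the replicate number as a block was set beside each result. In MOLM-13 it left the adjusted calls at 0 of 33 members and 0% of genes, with or without the fold threshold, and gave 8 members at an unadjusted p under 0.05, against 11.1% of genes: PMVK, MVD, TM7SF2, DHCR7, ACSS2, FASN, FADS2 and MYLIP. The fitted difference was positive for 29 of the 33 members and for 52.4% of genes, and 26 members were positive after scaling to TPM, against 47.6% of genes. Without the control library numbered 1 it was positive for 20 members and negative for 13, against 54.7% positive over all genes. Of the 6 regulation members 6 were positive with that library and 1 without it, and scaling to TPM left 4. Fits that leave out a library without the block leave 1 arm lacking its number. Here and below they mix the JOA difference with the difference between library numbers, so they cannot tell whether a direction rests on single libraries.

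For 3 members the JOA and control libraries of MOLM-13 did not overlap, all 3 higher with JOA, against 5.10% of genes higher and 4.55% lower. TM7SF2, a sterol reductase of the ER, gene at chr11:65111845-65116384 on the plus strand, measured 10.7, 11.5 and 11.3 FPKM in control and 17.5, 13.8 and 13.1 FPKM with JOA. The library numbered 1 gave the largest step, and the mean difference was 0.39 (SE 0.11, limma adjusted p 0.9997, with the block 0.326). FASN, at chr17:82078333-82098332 on the minus strand, measured 52.8, 54.3 and 55.0 FPKM in control and 75.8, 62.7 and 62.1 FPKM with JOA, a difference of 0.30 (SE 0.08, limma adjusted p 0.9997, with the block 0.326). PMVK, phosphomevalonate kinase, measured 15.0, 14.3 and 14.6 FPKM against 16.9, 15.6 and 15.4 FPKM (0.12, SE 0.06, limma adjusted p 0.9997, with the block 0.405). For 3 libraries against 3 the exact two-sided permutation p of each is 0.1, the smallest that this design allows. Without the control library numbered 1 the differences of TM7SF2, FASN and PMVK were 0.37, 0.28 and 0.14, and without the JOA library numbered 1, the highest for all 3, they were 0.27, 0.21 and 0.08.

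Taken by same-numbered pairs, 15 members of MOLM-13 were higher with JOA in all 3 pairs, against 18.5% of genes, and 1 member, MVK (-0.12), was lower in all 3, against 15.7% of genes. The 15 were 8 sterol enzymes (PMVK, MVD, SQLE, TM7SF2, NSDHL, EBP, SC5D and DHCR7), 5 fatty acid genes (ACSS2, FASN, FADS1, FADS2 and LPIN1) and the regulation genes STARD4 and MYLIP. The pair numbered 1 was the widest for most fatty acid genes. FADS2 was 1.80 times its control in that pair, 1.17 times in the pair numbered 2 and 1.03 times in the pair numbered 3. ACSS2 gave 1.51, 1.06 and 1.13 times control, and SCD gave 1.46, 0.971 and 1.01 times. SREBF1 gave 1.59, 0.880 and 0.966 times control, so that its direction differed between pairs. Without the control library numbered 1 the differences of SCD and SREBF1 were 0.00 and -0.07, against 0.17 and 0.14 with it. That fit had no block. The median difference of the 9 fatty acid members was 0.31 in the pair numbered 1, 0.01 in the pair numbered 2 and 0.01 in the pair numbered 3. The other sterol enzymes, ACAT2, HMGCS1, IDI1, FDPS, FDFT1, LSS, CYP51A1, MSMO1 and HSD17B7, had mean differences between -0.03 and 0.07, and ACLY, ACACA, ELOVL6, SREBF2, SCAP and INSIG1 had mean differences between -0.08 and 0.11.

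**Figure D3:**
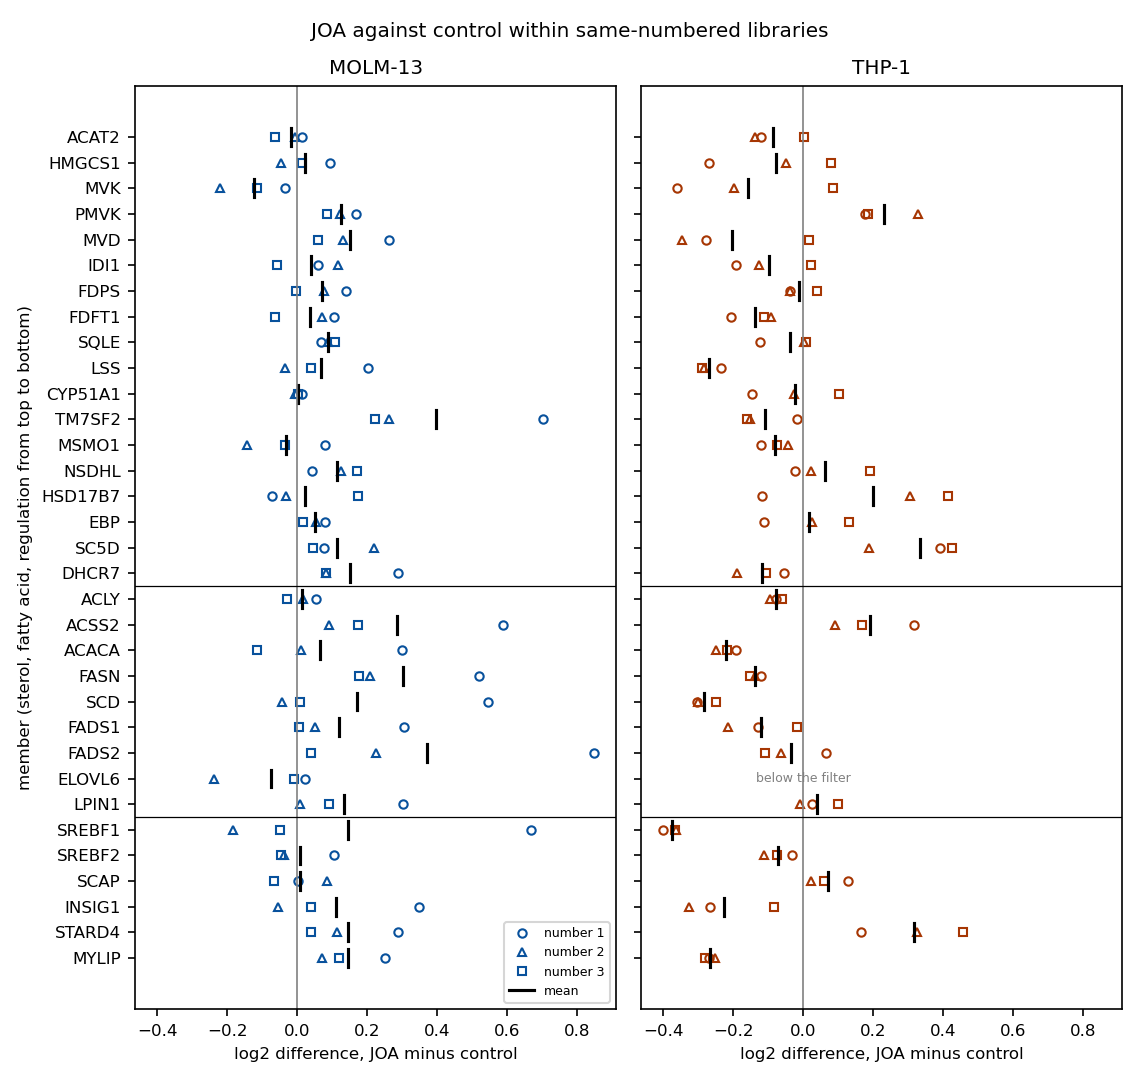
Difference of log2(FPKM + 0.1), JOA minus control, for each member in MOLM-13 and in THP-1, with 1 symbol for each same-numbered pair and a bar at the mean. The pairs numbered 1 of MOLM-13 lie farthest right for most fatty acid members, while SCD, SREBF1, LSS and MYLIP of THP-1 show 3 pairs close together and below 0.

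In THP-1 most of the small differences were negative, and again no member passed both thresholds. By limma 0 of 32 members were called, with or without the block, against 0.134% of the 12712 genes tested and 1.27% with the block. ELOVL6 lay under the filter of a mean of 0.1 FPKM and was not tested. At an unadjusted p under 0.05 limma gave 4 members and 16.9% of genes, and with the block 14 members and 26.0% of genes. In the blocked fit, with no fold threshold, 5 members were lower and 3 were higher at a limma adjusted p under 0.05, where 2.69% of genes were lower and 5.37% higher. Without the block all 8 were lost. These 8 depend on the scaling and on single libraries: with TPM 3 were lower instead of 5, with median-of-ratios scaling 1 was higher instead of 3, and leaving out libraries gave between 1 and 6 lower and between 0 and 4 higher. With median-of-ratios scaling the 5 lower members stayed under 0.05, and over the other settings the number lower reached 7. The number lower fell to 1 without the control library numbered 2 and to 2 without the JOA library numbered 2. The number higher fell to 0 without either library numbered 3 and to 1 without either library numbered 2.

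SREBF1, the gene of SREBP-1, was the one member of the 8 to pass in every alternative of the blocked fit. It measured 14.3, 15.0 and 10.8 FPKM in control and 10.8, 11.7 and 8.38 FPKM with JOA. The groups overlapped, since the control library numbered 3 was as low as JOA libraries, but each pair stood at a like share of its control, 0.756, 0.776 and 0.774 times. The difference was -0.38 (SE 0.15, limma adjusted p 0.270, with the block SE 0.05 and adjusted p 0.00876). The limma adjusted p lay between 0.00709 and 0.0218 in all 9 alternatives of the blocked fit. These were 3 other scalings or added constants and 6 fits leaving out a library. Leaving out either library of a pair takes that pair out of the blocked difference. The 6 fits thus gave only 3 different differences for each member, and the counts out of 9 are not counts of independent checks.

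SCD, the desaturase that makes oleate, measured 135, 113 and 72.5 FPKM in control and 109, 91.9 and 61.0 FPKM with JOA. Its pairs stood at 0.810, 0.812 and 0.841 times control, and the difference was -0.28 (limma adjusted p 0.634, with the block 0.0107, under 0.05 in 8 of 9 alternatives). LSS, lanosterol synthase, at chr21:46188141-46228824 on the minus strand, measured 12.1, 9.44 and 6.45 FPKM in control and 10.3, 7.74 and 5.26 FPKM with JOA. Its pairs stood at 0.849, 0.820 and 0.816 times control (-0.27, limma adjusted p 0.671, with the block 0.0264, under 0.05 in 5 of 9 alternatives). ACACA, the enzyme that commits acetyl-CoA to fatty acids, measured 15.0, 15.3 and 11.1 against 13.1, 12.8 and 9.51 FPKM, which was -0.22 (limma adjusted p 0.527, with the block 0.0328, under 0.05 in 4 of 9 alternatives). MYLIP was the sole member whose THP-1 groups did not overlap downward, against 8.81% of genes. It measured 6.20, 7.35 and 6.18 FPKM in control and 5.13, 6.15 and 5.07 FPKM with JOA, a difference of -0.27 (limma adjusted p 0.247, with the block 0.0320, under 0.05 in 4 of 9 alternatives), and the gap closed after scaling to TPM.

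The higher members of THP-1 were of mixed roles. SC5D, which desaturates the sterol ring just before DHCR7 acts, measured 6.55, 6.08 and 5.06 FPKM in control and 8.62, 6.93 and 6.82 FPKM with JOA. Its groups did not overlap, and the difference was 0.33 (SE 0.12, limma adjusted p 0.228, with the block 0.0288, under 0.05 in 6 of 9 alternatives). SCAP also did not overlap, 18.6, 19.1 and 18.5 against 20.4, 19.4 and 19.3 FPKM, with a difference of 0.07 (SE 0.05, limma adjusted p 0.500, with the block 0.365), and overlapped after median-of-ratios scaling. Genes that did not overlap upward were 14.6% of all genes tested, and SC5D and SCAP were 2 of 32 members. STARD4 measured 6.19, 4.78 and 3.45 FPKM in control and 6.96, 6.01 and 4.78 FPKM with JOA. Its groups overlapped, each pair was higher, and the difference was 0.32 (limma adjusted p 0.496, with the block 0.0429, under 0.05 in 4 of 9 alternatives). PMVK measured 14.9, 13.5 and 13.1 against 16.9, 16.9 and 14.9 FPKM, a difference of 0.23 (limma adjusted p 0.185, with the block 0.0384, under 0.05 in 4 of 9 alternatives).

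JOA was lower than control in all 3 same-numbered pairs of THP-1 for 14 of 32 members, against 19.4% of genes, and higher for 5 members, against 29.3% of genes. The 14 were FDFT1, LSS, TM7SF2, MSMO1 and DHCR7 of the sterol branch, ACLY, ACACA, FASN, SCD and FADS1 of the fatty acid branch, and SREBF1, SREBF2, INSIG1 and MYLIP. The 5 were PMVK, SC5D, ACSS2, SCAP and STARD4. The fitted difference was negative for 23 members and positive for 9, while 56.7% of genes were positive, and TPM left 22 negative of 33. The lean of the fit without the block changed when single libraries were left out. Without the control library numbered 1, 24 members were positive and 8 negative. Without the JOA library numbered 3, 21 were positive and 11 negative. In these fits 1 arm lacks that number, so they mix the JOA difference with the difference between library numbers. INSIG1 measured 48.7, 37.6 and 23.4 FPKM in control and 40.5, 30.0 and 22.1 FPKM with JOA, a difference of -0.23 with a limma adjusted p of 0.0504 under the block. FASN measured 96.6, 88.2 and 74.1 against 88.8, 80.1 and 66.6 FPKM, which was -0.14 (limma adjusted p 0.625, with the block 0.0649). ACAT2, HMGCS1, IDI1, FDPS, SQLE, CYP51A1, NSDHL, EBP, FADS2 and LPIN1 lay between -0.10 and 0.06, MVK and MVD at -0.16 and -0.20, and HSD17B7 at 0.20.

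**Figure D4:**
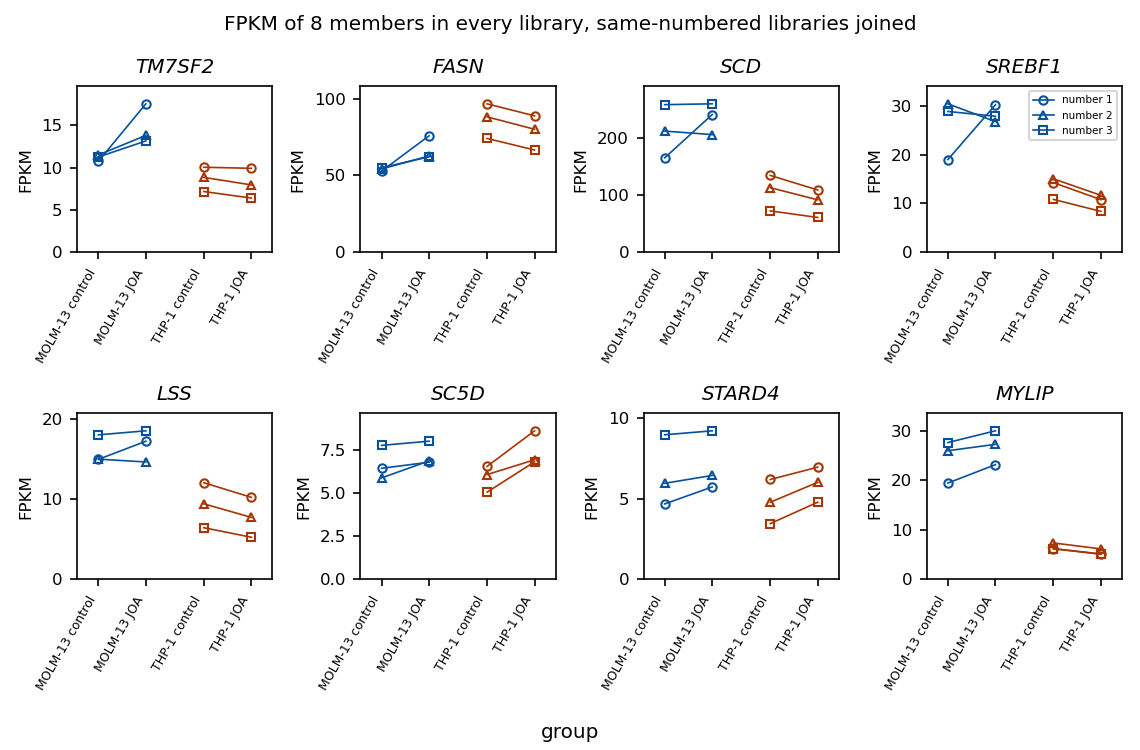
FPKM of 8 members in every library of the 4 groups (axes from 0), with lines joining same-numbered control and JOA libraries. In THP-1 the lines of SREBF1, SCD, LSS and MYLIP all run downward and those of SC5D and STARD4 upward, and in MOLM-13 the library numbered 1 takes the steepest step for TM7SF2, FASN, SCD and SREBF1.

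The JOA differences of the lines were compared by an interaction term. By limma 0 of 33 members passed an adjusted p under 0.05, as did 0% of the 12626 genes tested. With the replicate number as a block 0 members and 0.0475% of genes passed. At an unadjusted p under 0.05 limma gave 2 members (TM7SF2 and FASN) and 7.24% of genes, and with the block 15 members and 14.9% of genes. Of the 33 interaction values 28 were negative, that is, lower in THP-1, while 55.4% of all genes were positive. All 9 fatty acid members were negative, but ELOVL6 lay under 0.1 FPKM in every THP-1 library and was tested through its MOLM-13 level alone. Without the THP-1 control library numbered 1 16 of the 33 were negative, and without the THP-1 JOA library numbered 3 17 were. Both fits had no block and left 1 THP-1 arm lacking that number. MYLIP came closest with the block, 0.15 in MOLM-13 and -0.27 in THP-1 (interaction -0.41, limma adjusted p 0.697, with the block 0.0660). Without the MOLM-13 control library numbered 1 its MOLM-13 difference was -0.0074 and its interaction -0.26. That fit also had no block and left the MOLM-13 control arm lacking that number. Within same-numbered pairs of MOLM-13, MYLIP stood at 1.19, 1.05 and 1.09 times control. FASN stood at 0.30 and -0.14 (interaction -0.44, limma adjusted p 0.598, with the block 0.0925). SREBF1 stood at 0.14 and -0.38 (interaction -0.52, limma adjusted p 0.707, with the block 0.257). Without the MOLM-13 control library numbered 1, again with no block, it stood at -0.07 in MOLM-13 with an interaction of -0.31.

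The medians of the branches lay close together under JOA, and their difference was not tested. In MOLM-13 the median difference was 0.06 over 18 sterol members, 0.13 over 9 fatty acid members and 0.13 over 6 regulation members, beside 0.01 over all genes. Without the control library numbered 1 the medians of the first 2 were 0.07 and 0.0024, and over all single libraries left out they ranged from -0.0099, without control 2, to 0.15 and from 0.0024 to 0.28. In THP-1 the median difference was -0.08 over 18 sterol members, -0.10 over 8 fatty acid members and -0.15 over 6 regulation members, beside 0.02 over all genes. Leaving out 1 library in fits without the block left 1 arm lacking that number. The sterol median was then 0.14 without control 1, 0.10 without JOA 3 and -0.27 without control 3. The fatty acid median was 0.0019, 0.03 and -0.30 in the same fits. In either line such fits mix the JOA difference with the difference between library numbers, so they cannot tell whether the direction rests on single libraries. Within pairs the THP-1 sterol medians were -0.12, -0.05 and 0.03 and the fatty acid medians -0.10, -0.12 and -0.08, in the order of the numbers. Between the untreated lines the medians lay further apart, at -0.63 for the sterol and -0.05 for the fatty acid members, beside 0.06 over all genes. The fatty acid median moved to -0.29 without the THP-1 control library numbered 1 and to 0.27 without the one numbered 3.

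Differences between library numbers were larger than the JOA differences in most members. In THP-1 the replicate number took a median of 94.5% of the sum of squares of the sterol members and JOA 4.14%, where all genes had medians of 41.7% and 23.4%. In MOLM-13 the sterol medians were 83.7% and 8.09%, where all genes had 57.3% and 10.8%. The number has more levels than JOA, so its share would tend to be larger even with no effect. The shares are therefore read beside those of all genes. The sterol members ranged over the THP-1 numbers by a median of 0.64 on the log2 scale, against 0.16 for all genes, and over the MOLM-13 numbers by 0.33, against 0.18. The order of the 3 numbers was the same in control and JOA for 17 of 18 sterol members of THP-1, against 28.7% of genes.

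The libraries numbered 1 and 3 marked the ends of the whole sterol branch of THP-1. CYP51A1, the lanosterol demethylase, measured 27.9, 18.4 and 12.9 FPKM in control and 25.2, 18.1 and 13.9 FPKM with JOA. HMGCS1 measured 27.3, 17.7 and 13.3 FPKM in control and 22.7, 17.1 and 14.0 FPKM with JOA. In both genes the libraries numbered 1 were highest and those numbered 3 lowest in both arms, and control and JOA overlapped nearly fully. Among the fatty acid members FADS2 spread most, 54.6, 45.2 and 24.9 FPKM in control and 57.1, 43.2 and 23.0 FPKM with JOA. SCAP spread least, by 0.04 on the log2 scale over the numbers.

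MOLM-13 showed another order. The libraries numbered 3 were highest for 13 of 18 sterol members and those numbered 2 lowest for 17 of 18. STARD4 spread most there, 4.68, 5.95 and 8.96 FPKM in control and 5.73, 6.44 and 9.21 FPKM with JOA, and SREBF2 least, by 0.03 on the log2 scale. The other sterol genes described next had medians of 56.2% in MOLM-13 and 32.2% in THP-1, and the other fatty acid and lipid genes 64.2% and 46.9%, the former above the 52.0% of the fatty acid members of MOLM-13. The genes of proliferation had medians of 30.0% and 47.4%. What the number stands for was not given in the sources used here, and its part in these values was not tested beyond the blocked fits.

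**Figure D5:**
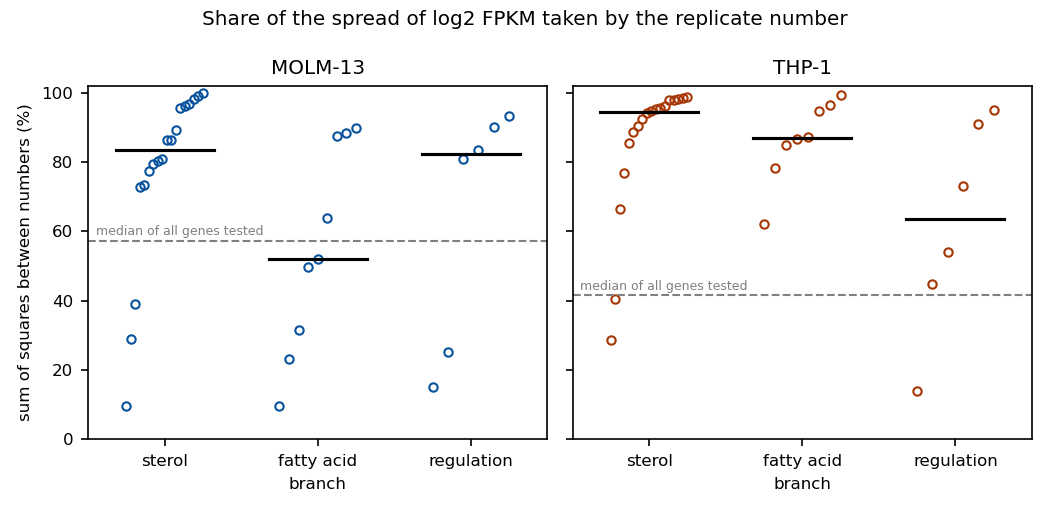
Share of each member's sum of squares of log2(FPKM + 0.1) that lies between replicate numbers (%), by branch, in MOLM-13 and THP-1, with bars at the branch medians and a dashed line at the median of all genes tested. In THP-1 the sterol median is 94.5% and in MOLM-13 83.7%, both above the dashed lines at 41.7% and 57.3%.

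Other sterol genes were mostly higher with JOA in THP-1, and their difference from the members was not tested. Of a list of 22 genes 21 were tested in each line. Among them were proteases and retention factors of SREBP, sterol transporters, LXR genes and lysosomal genes. The list also held synthesis enzymes, LBR (0.13 in THP-1), GGPS1 (0.17) and DHDDS (0.03) among them. In THP-1 16 of 21 were positive, against 56.7% of genes. Of the 21, 10 did not overlap upward (14.6% of genes) and 0 downward. At a limma adjusted p under 0.05 with the block 5 were higher, against 5.37% of genes, and none without the block. The largest differences were 0.53 for NPC2, which moves cholesterol out of lysosomes (27.6 against 39.6 FPKM, limma adjusted p 0.103, with the block 0.0180), 0.50 for the cholesterol exporter ABCA1 (0.619 against 0.908 FPKM, with the block 0.0662) and 0.46 for ERLIN2, an ER protein of sterol-dependent degradation (10.5 against 14.5 FPKM, with the block 0.0108). In MOLM-13 15 of 21 were positive, against 52.4% of genes, and 1 did not overlap upward, against 5.10% of genes. There 0 were called with or without the block. ABCA1 (0.51), NPC2 (0.26) and the lysosomal lipase LIPA (0.21) were largest there. Between the untreated lines 4 were lower and 1 higher in THP-1, against 19.0% and 25.0% of genes. The LXR gene NR1H2 stood at -1.82, the ubiquitin ligase RNF139 at -1.79 and the LXR gene NR1H3 at 1.54.

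Of 26 other fatty acid and lipid genes 24 were tested in MOLM-13 and 26 in THP-1. None was called in MOLM-13, and in THP-1 2 were higher at a limma adjusted p under 0.05 with the block, against 5.37% of genes, and none without it. These were ACSL1, which activates long-chain fatty acids (0.54, 9.63 against 14.2 FPKM, limma adjusted p 0.0884, with the block 0.00804), and malic enzyme ME1, a source of NADPH (0.52, 5.28 against 7.58 FPKM, limma adjusted p 0.0914, with the block 0.00804). The third largest was ELOVL7, an elongase near the filter (0.43, with the block 0.298). In MOLM-13 the largest differences were LPIN3 (0.56, from 0.0683 to 0.152 FPKM), ME1 (0.26) and ACSL1 (0.19). The control mean of LPIN3 lies under the filter, so it was tested through its JOA level and its value depends on the added 0.1 (limma adjusted p 0.9997, with the block 0.471). Between the untreated lines 8 were higher and 5 lower in THP-1, against 25.0% and 19.0% of genes. The second stearoyl-CoA desaturase SCD5 stood at 0.0812 FPKM in MOLM-13 and 3.12 FPKM in THP-1 (4.18), LPIN3 at 0.0683 and 1.57 FPKM (3.31) and the carboxylase ACACB at 0.144 and 1.39 FPKM (2.61).

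Genes of proliferation and of the myeloid state are set beside the members. In MOLM-13 all 12 proliferation genes were negative with JOA, against 47.6% of genes. For 5 of them the groups did not overlap, against 4.55% of genes lower. The summed level of the 12 lay between 948 and 1116 FPKM in control and between 913 and 937 FPKM with JOA. In THP-1 6 were negative and 6 positive, against 43.3% of genes negative. The 10 myelomonocytic genes summed to between 2256 and 3497 FPKM in control and between 2790 and 3732 FPKM with JOA in MOLM-13, and to between 1073 and 1668 FPKM and between 1082 and 1400 FPKM in THP-1. These sums are mostly LYZ and hide opposite differences in THP-1. There 2 of the 10 were higher and 2 lower at a limma adjusted p under 0.05 with the block and none without it. With the block 5.37% of genes were higher and 2.69% lower. ITGAM was higher (0.71, limma adjusted p 0.103, with the block 0.0348), as was CD33 (0.29, with the block 0.0342), and MPO had the larger of the lower differences (-0.64, limma adjusted p 0.399, with the block 0.00659). Of the proliferation genes RRM2 was higher in THP-1 with the block (0.19, limma adjusted p 0.201, with the block 0.0305). Their part in the differences of the members was not tested.

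Some members share sequence or position with other genes, which the counting could have mixed. In GENCODE v29 on GRCh38, the build of the files, 5 members have pseudogenes under their own name: FDPS with 8, CYP51A1 with 3, HSD17B7 with 2, SCD with 1 and FADS2 with 1. A further protein-coding gene overlaps 9 members, ACAT2, MVK, CYP51A1, TM7SF2, ACSS2, ACACA, FADS1, FADS2 and SREBF1, where FADS1 and FADS2 overlap each other on opposite strands. The library kit kept the strand, but the strand setting of the counting was not given in the sources used here, so values of these members are less certain.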

How the data were processed

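Poly(A) RNA of 12 libraries from 2 cell lines was sequenced. The authors trimmed reads with Trimmomatic, aligned them to hg38 with HISAT2 and deposited 1 table of FPKM for 20030 gene symbols, Cufflinks and HTSeq being named per the labels. Versions, annotation and strand setting were not given in the sources used here. A legend of the study names a longer treatment than the 48 h of the labels. FPKM keeps no read total, so no counting interval could be set. Every library held 0 for 3488 rows, and 27 rows carried gene names turned into dates.

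From the table log2(FPKM + 0.1) was computed, genes with a mean under 0.1 FPKM over the libraries compared were left out, and limma 3.58.1 in R 4.3.3 was fitted over all remaining genes for each comparison, with Benjamini-Hochberg adjustment. Genes were called at an adjusted p under 0.05 where the log2 fold change also reached 0.58 in size. All 33 members are named, with full statistics for those called or not overlapping under JOA and for the 5 largest calls each way between untreated lines. THP-1 members under 0.05 in the blocked fit were also given in full, chosen after their values were seen. The members, the lists of related genes and the marker lists were chosen with earlier results of these data known. Replicate numbers come from the sample titles. Deviations of same-numbered control and JOA libraries correlated with r from 0.264 to 0.398 in MOLM-13 and from 0.139 to 0.319 in THP-1. A fit with the number as a block is therefore given beside the JOA results. Those of different numbers lay from -0.256 to 0.0168 and from -0.259 to -0.0280. Deviations from a group mean cancel within the group, so these low values are not independent of the same-numbered ones. Blocked fits with other scalings, constants or libraries were added after seeing the data. The other alternatives were scaling to TPM, median-of-ratios scaling, pseudocounts of 1 and 0.01, a filter of 1 FPKM or none, and leaving out each library. The scripts were tested on simulated data.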

Additional observations from a re-analysis of the deposited data

Results flagged for a closer look

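For 5 members all 3 same-numbered pairs were higher with JOA in MOLM-13 and all 3 were lower in THP-1. Pairs that all moved oppositely in the lines, with no direction set, were seen in 588 of the 11355 genes tested in both (5.18%). The 5 were 15.6% of the 32 members tested in both. The difference was tested by the interaction term of limma with Benjamini-Hochberg adjustment, which none of the 5 passed. With 1 library left out, DHCR7 and FADS1 each ranged from -0.48 without the THP-1 control library numbered 3 to -0.07 and -0.05 without the THP-1 JOA library numbered 3, and MYLIP reached -0.26 without the MOLM-13 control library numbered 1. These fits had no block and left 1 arm lacking that number, so they mix the JOA difference with the difference between library numbers. TM7SF2, a sterol reductase, had an interaction of -0.50 (limma adjusted p 0.667, with the replicate block 0.135). DHCR7, the last step to cholesterol from 7-dehydrocholesterol, had -0.27 (limma adjusted p 0.918, with the block 0.164). FASN, fatty acid synthase, had -0.44 (limma adjusted p 0.598, with the block 0.0925). FADS1, the delta-5 desaturase, had -0.24 (limma adjusted p 0.921, with the block 0.266). MYLIP, the ligase that marks lipoprotein receptors, had -0.41 (limma adjusted p 0.697, with the block 0.0660). The dose differed between the lines, so line and dose cannot be told apart here.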

How the results depend on the processing

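Between the untreated lines the members called higher in THP-1 went from 2 to 5 with the adjusted p alone and to between 0 and 2 when a library was left out, FASN and FADS1 both standing at 0.58 without the THP-1 control library numbered 1. Same-numbered control libraries of the 2 lines correlated with r from 0.0698 to 0.131, so the numbers were not taken to pair across lines, and the replicate block left the counts at 2 higher and 16 lower. The fatty acid median between lines ranged from -0.29 to 0.27 over libraries left out. Under JOA in THP-1 the blocked fit at an adjusted p under 0.05 gave 3 members higher and 5 lower, against 0 and 0 with no replicate block, 1 higher with median-of-ratios scaling, 3 lower with TPM, 0 to 4 higher and 1 to 6 lower with a library left out. Over the other settings the number lower reached 7. Of the non-overlapping members of THP-1, 1 was higher instead of 2 with median-of-ratios scaling and 0 lower instead of 1 with TPM. The interaction gave 1 lower call, MYLIP, with the block and a pseudocount of 1. With a library left out, its value ranged for SCAP from -0.0185, without the MOLM-13 JOA library numbered 3, to 0.113, and for STARD4 from -0.0811, without the MOLM-13 control library numbered 3, to 0.381, with -0.0433 without the THP-1 control library numbered 3. The interaction fits leaving out a library had no block and left 1 arm lacking that number. The causes were not tested. The block changed no other call on a member. Among the other lists under JOA in THP-1 it added the calls given beside them, at the adjusted p alone for 5 other sterol genes, 2 other fatty acid genes, 1 proliferation gene and 4 monocytic genes, ITGAM and MPO of the last also passing the fold threshold. With a library left out and no block, the JOA sterol median ranged from -0.27 to 0.14 in THP-1 and from -0.0099 to 0.15 in MOLM-13. The THP-1 fatty acid median ranged from -0.30 to 0.03, so these medians did not keep their direction. The remaining 330 values of comparisons and 500 values of single members either kept their direction and side of the threshold, or only stayed within the spread or, for counts, within 1.5 times. A value within the spread can still have changed sign. The table holds no read totals, so the part of depth in the precision could not be given.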
